A study of Mus musculus with 3 samples.

Results

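The genes described here encode the proteins that carry and tune a signal just beneath the T cell receptor: kinases, phosphatases, adaptors, costimulatory and inhibitory surface receptors, exchange factors, lipid enzymes and ubiquitin ligases. The CD3 chains of the receptor itself are not among them. The list of 34 genes was drawn up by function, with earlier results of these data known. Each gene was represented by its probe set with a single gene symbol in the platform's annotation, the brightest by mean where it had several. Of the 34 genes, 33 were measured in this way, among 19938 genes in all. Lck, the Src family kinase bound to the coreceptors, was not analysed here. Expression was measured on 3 Affymetrix arrays, each hybridised with labelled total RNA of CD4+ CD8+ double-positive (DP) thymocytes from a different cohort of littermates, which makes 1 group of 3 biological replicates. All mice were C57BL/6 of WT genotype aged 5 to 6 weeks, with no treatment named, and DP cells were bead-sorted by CD8 and then CD4. How many mice a cohort held is not given in the labels. The labels also describe formaldehyde fixation of cells before that sort, without saying whether the RNA samples were fixed. The arrays accompany maps of Ets1 and Runx1 binding in Rag2-deficient thymocytes and of the E protein E47 in DP cells.

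When a T cell receptor is engaged, Src family kinases phosphorylate the CD3 chains, Zap70 docks on them and in turn phosphorylates the adaptors Lat and SLP-76, and these gather a complex that holds phospholipase C gamma, Vav and the Ras exchange factors. Diacylglycerol made by the phospholipase recruits Rasgrp1 and protein kinase C theta, and the latter signals through Bcl10 and Malt1 to NF-kB. Phosphatases, inhibitory receptors and ubiquitin ligases set how strong a ligand must be to trigger the chain. In DP thymocytes the strength of this signal decides between death by neglect, positive selection and deletion.

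Because the project mapped Ets1, Runx1 and E47, RefSeq promoter windows (GRCm38.p6, 250 bases before to 50 after each annotated start) were searched on both strands for TGTGGT (RUNX), CCGGAAG (ETS) and the E-boxes CAGCTG and CAGGTG, whose matches may overlap each other. Windows were found for 27 of the 34 genes, Lck included, 42 windows in all. TGTGGT stood in 14.3% of these windows against 16.8% of all 32851 windows, CCGGAAG in 2.38% against 8.86%, CAGCTG in 9.52% against 16.3%, and CAGGTG in 28.6% against 20.2%. Any of the 4 motifs stood in 52.4% of the windows of these genes and in 49.6% of all windows. The stretches below belong to the genes with the largest spread between the cohorts for which a window was matched (Bcl10, Ptpn6, Zap70 and Vav1), and to Ptpn22, whose window holds 3 matches to TGTGGT. Capitals mark motif matches on either strand, so that ACCACA is TGTGGT on the opposite strand.

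Bcl10, 250 bases before the start, chr3:145924012-145924261, + strand: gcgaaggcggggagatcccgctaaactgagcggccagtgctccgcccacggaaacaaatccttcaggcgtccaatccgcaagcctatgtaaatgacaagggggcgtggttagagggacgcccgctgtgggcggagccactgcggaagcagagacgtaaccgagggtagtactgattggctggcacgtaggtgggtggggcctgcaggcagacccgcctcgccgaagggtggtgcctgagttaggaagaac
Bcl10, around its only match, from base 25 after the start on, chr3:145924286-145924311, + strand: aggggcggagCCGGAAGtggggcgtt
Ptpn6, 250 bases before the start, chr6:124738710-124738959, - strand: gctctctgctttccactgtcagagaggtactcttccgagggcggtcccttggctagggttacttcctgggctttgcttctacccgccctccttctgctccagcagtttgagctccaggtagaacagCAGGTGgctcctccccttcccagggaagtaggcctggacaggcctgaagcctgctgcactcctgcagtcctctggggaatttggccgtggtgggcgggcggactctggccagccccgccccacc
Zap70, before the first start, chr1:36761548-36761797, + strand: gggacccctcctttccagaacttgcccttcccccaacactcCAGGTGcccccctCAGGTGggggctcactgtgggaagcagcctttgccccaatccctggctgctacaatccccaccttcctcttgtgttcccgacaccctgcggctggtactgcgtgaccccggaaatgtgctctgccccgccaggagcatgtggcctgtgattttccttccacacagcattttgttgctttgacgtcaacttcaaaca
Zap70, before the next start, chr1:36764265-36764514, + strand: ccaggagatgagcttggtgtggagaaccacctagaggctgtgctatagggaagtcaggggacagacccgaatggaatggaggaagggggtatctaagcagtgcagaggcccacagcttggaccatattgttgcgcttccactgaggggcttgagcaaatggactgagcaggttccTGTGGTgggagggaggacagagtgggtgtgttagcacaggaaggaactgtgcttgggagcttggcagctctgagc
Vav1, 250 bases before the start, chr17:57278850-57279099, + strand: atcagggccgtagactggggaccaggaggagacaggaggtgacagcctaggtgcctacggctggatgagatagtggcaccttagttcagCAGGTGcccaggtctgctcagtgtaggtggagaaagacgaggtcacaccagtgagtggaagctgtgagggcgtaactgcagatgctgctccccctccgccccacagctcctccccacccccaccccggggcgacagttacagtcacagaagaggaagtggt
Ptpn22, before the later start, chr3:103860027-103860276, + strand: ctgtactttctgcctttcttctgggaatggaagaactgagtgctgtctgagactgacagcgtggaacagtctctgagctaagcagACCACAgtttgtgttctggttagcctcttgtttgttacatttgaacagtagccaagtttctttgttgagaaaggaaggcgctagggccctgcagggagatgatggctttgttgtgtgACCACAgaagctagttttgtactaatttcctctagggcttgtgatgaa

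The Bcl10 stretch before the start holds none of the 4 motifs, and its CCGGAAG, the only match to the ETS motif among the 42 windows, begins 35 bases after the start. A further Zap70 window, from chr1:36778734 on and not shown, has CAGGTG at base -184. In the Ptpn22 window TGTGGT begins at bases -165, -48 and, beyond the stretch shown, 9. The Lat window has TGTGGT at base -5, across the start. A match is a string of letters and not evidence of binding. The ratio of observed to expected CpG, which is high in CpG islands, had a median of 0.352 over the windows of these genes and of 0.384 over all windows. It was 0.6 or more in 13 of the 42 windows, or 31.0%, among them those of Cbl, Fyn, Prkcq, Rasgrp1 and Bcl10, against 35.8% of all windows. It was lowest in the window of Lcp2, at 0, followed by 1 of the Themis windows at 0.0610 and that of Grap2 at 0.10.

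All values below are log2 expression values as deposited, listed in the order of arrays 1, 2 and 3, and SD is the standard deviation over the 3 arrays (n = 3). The number of arrays limits their precision. The level of a probe set also depends on its probes, so levels are set against a background limit and not against each other. For each array the limit was set from 99 probe sets whose genes are typical of other organs, as their 95th percentile: 7.38, 7.50 and 7.41. Of the 33 genes, 32 lay above it on all 3 arrays, where 40.8% of all genes did. The same 32 exceeded the 99th percentile (8.02, 7.94 and 7.93), which 34.6% of all genes did.

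The markers of the sort were present. Cd4 had 11.59, 11.88 and 11.76, Cd8a had 13.03, 13.27 and 13.26, and Rag1, which cuts the antigen receptor loci, had 13.39, 13.56 and 13.57. All 11 measured DP stage genes lay above the limit, against 1 of 10 B cell markers, 3 of 15 myeloid and dendritic markers, 1 of 7 NK cell, 1 of 9 thymic epithelial, 1 of 7 stromal and 3 of 11 mature T cell genes, 0 of 3 erythroid genes and 0 of 9 early thymocyte genes (Lyl1 on array 3 only). Besides Lyl1, 3 myeloid and dendritic, 2 NK cell, 2 mature T cell, 2 thymic epithelial and 1 stromal gene exceeded the limit on some arrays. Array 1 stood farther from the other arrays than these from each other, with 139 and 123 of 28944 probe sets differing by more than 1 log2 unit from arrays 2 and 3, against 32 between arrays 2 and 3. Its cohort also differed in sex-linked RNA: Xist, transcribed from the inactive X chromosome of females, had 11.65, 5.40 and 5.68. The Y-linked genes ran the other way: Eif2s3y had 4.21, 10.29 and 10.08, Kdm5d 4.46, 9.10 and 8.97, and Uty 4.00, 8.96 and 8.98. By these genes array 1 read as female and arrays 2 and 3 as male. A difference of array 1 from both other arrays therefore cannot be told apart from a difference between the sexes.

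**Figure D1:**
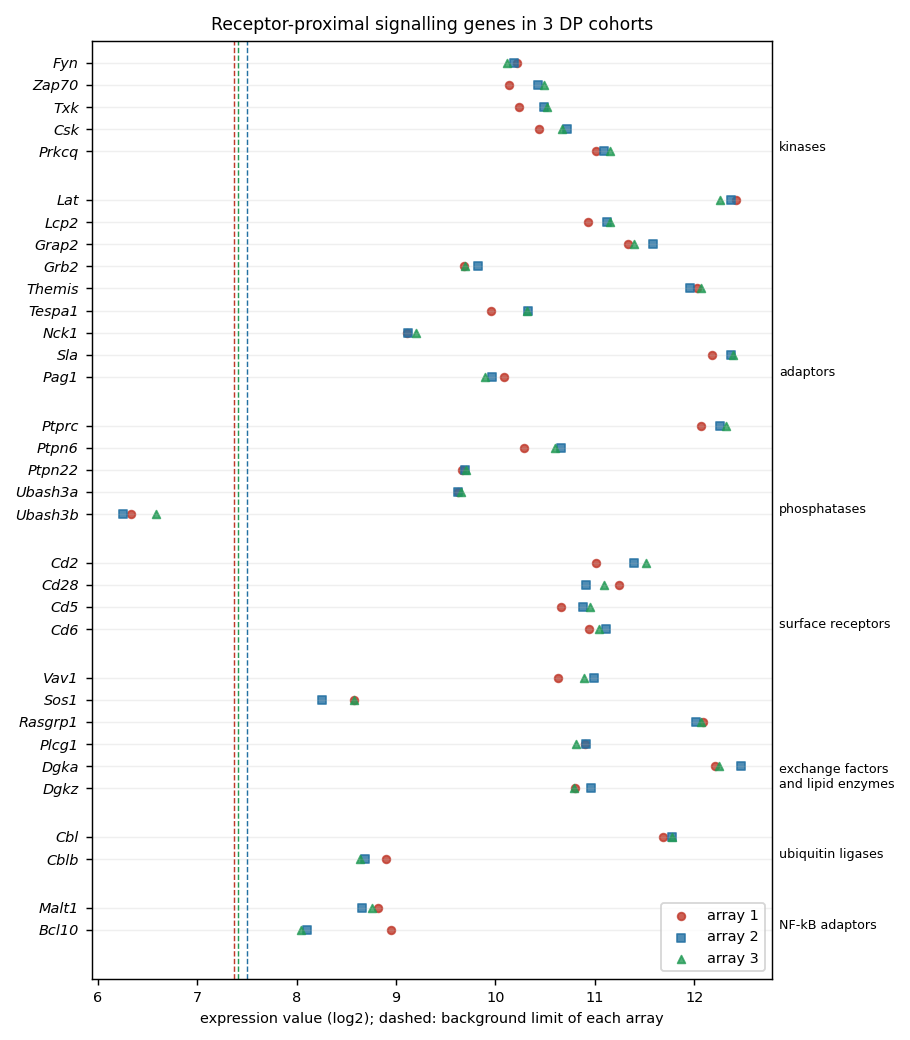
Log2 expression value (x axis) of the 33 measured genes of receptor-proximal signalling, grouped by role, with a point for each of the 3 arrays and dashed lines at each array's background limit (7.38, 7.50 and 7.41). All genes but Ubash3b lie to the right of the lines on all arrays, and only Bcl10 shows a point far from its other points.

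The 5 measured kinases were well above the limit. Of these, 4 had their lowest value on array 1, as did 41.2% of all genes above the limit. Zap70, the Syk family kinase that docks on phosphorylated CD3 chains, had 10.14, 10.43 and 10.49 (SD 0.19). Txk, a Tec family kinase also called Rlk, had 10.24, 10.49 and 10.52 (SD 0.15). Csk, which holds Src family kinases inactive by phosphorylating their tail, had 10.44, 10.72 and 10.67 (SD 0.15). In each of these 3 genes arrays 2 and 3 lay within 0.06 of each other and array 1 lay 0.23 to 0.29 below the nearer of them. Prkcq, protein kinase C theta, had 11.01, 11.09 and 11.15 (SD 0.070), lowest on array 1 by 0.08. Fyn, the second Src family kinase of T cells, had 10.22, 10.19 and 10.12 (SD 0.051) and was the only kinase highest on array 1, by 0.03. On average the kinases deviated from their own 3-array means by -0.12, 0.056 and 0.062.

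The 9 adaptors were all above the limit on every array. Lat, the membrane scaffold that Zap70 phosphorylates, had 12.42, 12.37 and 12.26 (SD 0.082). Lcp2, which encodes SLP-76, had 10.93, 11.12 and 11.15 (SD 0.12), and Grap2, which encodes the Gads protein that links SLP-76 to Lat, had 11.33, 11.58 and 11.39 (SD 0.13). Array 1 was thus highest for Lat and lowest for both of its partners. Grb2, the adaptor that brings Sos to Lat, had 9.68, 9.82 and 9.69 (SD 0.078), and Nck1, which links SLP-76 to actin regulators, had 9.11, 9.12 and 9.20 (SD 0.049). Both genes varied by less than 0.15 over the 3 cohorts.

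Themis and Tespa1, each needed for thymocyte development past the DP stage, differed in how far the cohorts lay apart. Themis, which binds Grb2 and Ptpn6, had 12.03, 11.96 and 12.07 (SD 0.056). Tespa1 had 9.96, 10.33 and 10.32 (SD 0.21), the third largest spread of the 33 genes, with arrays 2 and 3 only 0.01 apart and array 1 lower by 0.36 than the nearer one. Sla, the Src-like adaptor that promotes turnover of the receptor in DP cells, had 12.18, 12.37 and 12.39 (SD 0.12), again lowest on array 1. Pag1, the membrane adaptor that recruits Csk, had 10.09, 9.97 and 9.90 (SD 0.096) and was highest there. Of the 9 adaptors, 6 were lowest on array 1 and 2, Lat and Pag1, were highest on it. Of all genes above the limit 41.2% were lowest and 38.6% highest there.

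Among the phosphatases and their relatives, 1 gene was not detected. Ptprc, which encodes CD45 and activates Lck by removing its inhibitory phosphate, had 12.07, 12.26 and 12.32 (SD 0.13). Ptpn6, the SH2 domain phosphatase SHP-1, had 10.29, 10.66 and 10.60 (SD 0.20), so that array 1 lay 0.31 below array 3. The value of Ptpn22, which acts with Csk on Src family kinases, hardly moved, at 9.66, 9.69 and 9.70 (SD 0.021). Ubash3a, which encodes Sts-2, moved even less, with 9.62, 9.62 and 9.65 (SD 0.017), the smallest spread of the 33 genes. Its paralogue Ubash3b, which encodes Sts-1, had 6.34, 6.25 and 6.59 (SD 0.18) and lay below the limit on all 3 arrays. Its probe set lay below the limit set at the median of the other-organ probe sets plus 1 log2 unit as well (6.86, 6.91 and 6.92). The signal was therefore not distinguishable from background, which does not show that the RNA was absent.

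The 4 surface receptors split by the direction of array 1. Cd2, an adhesion and costimulatory receptor, had 11.01, 11.39 and 11.51 (SD 0.26), the second largest spread of the list. Cd5, an inhibitory receptor whose level on thymocytes follows the strength of receptor signals, had 10.66, 10.88 and 10.95 (SD 0.15). Cd6, its relative, had 10.94, 11.11 and 11.04 (SD 0.085). These 3 genes were lowest on array 1, by 0.38, 0.22 and 0.10 below the nearer array. Of all genes above the limit 41.2% were lowest there. Cd5 and Cd6 are adjacent, with no protein-coding gene between them in the RefSeq gene order of GRCm38.p6. Cd28, the costimulatory receptor for CD80 and CD86, ran the other way with 11.24, 10.91 and 11.09 (SD 0.17), highest on array 1.

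The exchange factors and lipid enzymes were all detected and showed no common direction. Vav1, the exchange factor that binds SLP-76, had 10.63, 10.99 and 10.89 (SD 0.19), lowest on array 1. Sos1, the Ras exchange factor carried by Grb2, had 8.58, 8.26 and 8.58 (SD 0.18), so that array 2 was the low one. Rasgrp1, the Ras exchange factor that diacylglycerol activates, had 12.09, 12.02 and 12.07 (SD 0.036). The 2 exchange factors for Ras thus differed in spread, and array 1 was not low in either. Plcg1, the phospholipase C gamma that makes diacylglycerol, had 10.90, 10.91 and 10.81 (SD 0.055). Dgka, a kinase that removes diacylglycerol, had 12.21, 12.47 and 12.25 (SD 0.14), highest on array 2. Dgkz, which does the same, had 10.80, 10.96 and 10.79 (SD 0.095), also highest on array 2. Dgkz was the only gene of the list with 2 probe sets of its own, and the other read 6.88, 6.74 and 6.63, below the limit on every array, so its detection rests on 1 of them.

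Of the 2 ubiquitin ligases and 2 NF-kB adaptors, all but Cbl were highest on array 1, as were 38.6% of all genes above the limit. Cbl, which marks activated kinases and receptors for degradation, had 11.69, 11.78 and 11.78 (SD 0.052). Cblb, its relative that restrains signalling without CD28, had 8.90, 8.69 and 8.64 (SD 0.14), so that array 1 lay 0.21 above array 2. Malt1, the protease of the Bcl10 complex, had 8.82, 8.66 and 8.76 (SD 0.081). Bcl10, the adaptor that assembles into filaments with Malt1, had 8.95, 8.10 and 8.04 (SD 0.51). Its arrays 2 and 3 were 0.06 apart, and array 1 was 0.85 above the higher of them, or 1.84-fold over their mean. Malt1, the partner of Bcl10, differed on array 1 from the mean of the other arrays by 0.11.

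No gene of the list passed a test for a spread between the cohorts above that of probe sets of its level. The test was an intercept-only limma fit over 28944 probe sets with an F test of each variance against a robust, mean-dependent prior. It called 0 of the 33 genes at a Benjamini-Hochberg adjusted p under 0.05, against 6 probe sets or 0.0207% of all. Among these 6 were those of the sex-linked genes Xist, Eif2s3y, Kdm5d and Uty. An unadjusted p under 0.05 was found for 2 of the 33, Bcl10 and Cd2, against 4.66% of all probe sets. Their adjusted p-values by limma were 0.86 and 0.99. On simulated arrays of these 28944 probe sets the test recovered 0% of shifts of 0.5 or 1 log2 unit on 1 array and 4% of shifts of 2, so differences of the size seen here were out of its reach. Among the 8144 genes above the limit, 37 (0.454%) had an SD at least as large as that of Bcl10, and 396 (4.86%) one at least as large as that of Cd2. The median SD of the 33 genes was 0.12, against 0.11 over all genes and 0.093 over genes above the limit. Without array 1 it was 0.049, and the SD of Bcl10 was 0.042. The median absolute difference between arrays 2 and 3 was 0.07 for the 33 genes and also 0.07 for genes above the limit. Between arrays 1 and 2 it was 0.19 and 0.13, and between arrays 1 and 3 it was 0.15 and 0.13. Without array 1 the genes with an unadjusted p under 0.05 were Dgka and Sos1, 2 of the 33 against 5.53% of all probe sets. Their adjusted p was 0.76 each by limma. Dgka was 0.22 higher and Sos1 0.32 lower on array 2 than on array 3.

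**Figure D2:**
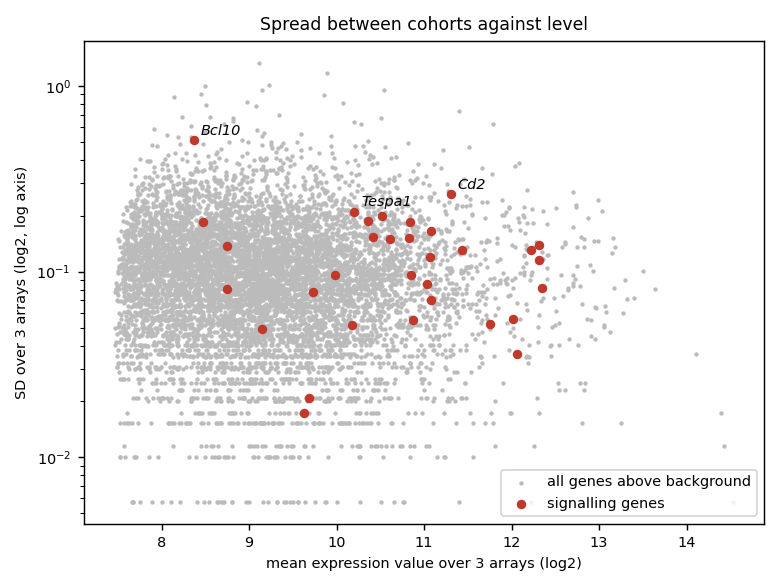
Standard deviation over the 3 arrays (y axis, log scale, log2 units) against the mean log2 expression value (x axis) for the genes above background (grey; 14 genes with an SD of 0 cannot be drawn) and the 32 signalling genes among them (red). Bcl10 at 0.51 and Cd2 at 0.26 have the largest spread of the signalling genes.

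Small differences on array 1 nevertheless leaned one way over the list. Of the 32 genes above the limit, 19 were lowest on array 1, where 41.2% of all genes above the limit were, and 8 were highest on it, against 38.6%. The values on array 1 were lower than on array 2 for 21 of the 32, against 50.9% of genes above the limit. They were lower than on array 3 for 21, against 49.5%. Array 2 was lower than array 3 for 16, against 47.8%. A margin of 0.2 or more below both other arrays, chosen after the values were seen, was found for 8 of the 32, against 10.2% of genes above the limit. These were Zap70, Txk, Csk, Tespa1, Ptpn6, Cd2, Cd5 and Vav1. The same margin above both other arrays was found for 2, Bcl10 and Cblb, against 11.9%. The mean deviation of the 32 genes was -0.042, 0.023 and 0.019, and -0.062, 0.032 and 0.030 without Bcl10. Over all genes above the limit it was 0.0052, -0.0012 and -0.0040. A single array has no replicate of its own, so no test bears on these counts. After quantile normalization 23 genes were lowest and 6 highest on array 1 (45.1% and 35.8% of genes above the limit), and after median centring 17 and 9 (38.9% and 41.6%).

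**Figure D3:**
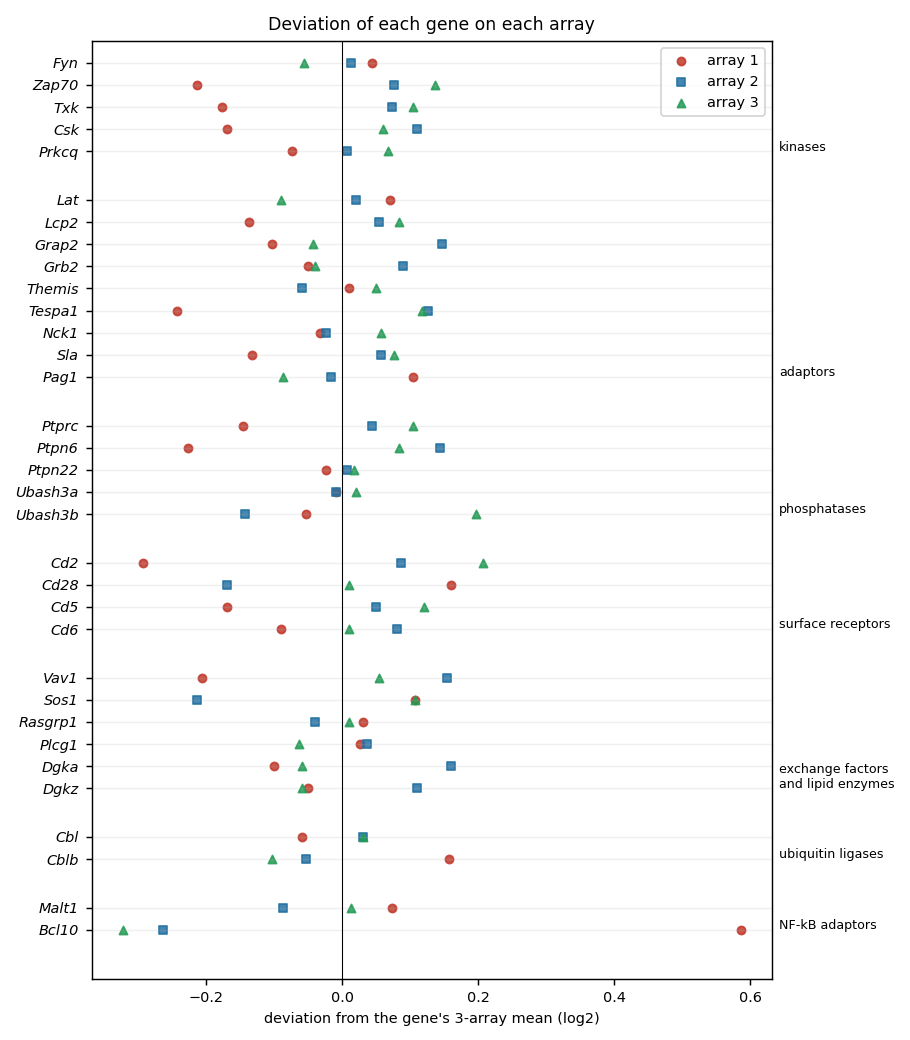
Deviation of each signalling gene from its own mean over the 3 arrays (x axis, log2), grouped by role. Array 1 (red circles) lies to the left for Zap70, Txk, Csk, Tespa1, Ptpn6, Cd2, Cd5 and Vav1, at -0.17 to -0.29, and to the right for Bcl10, at 0.59.

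Several other gene lists moved on array 1 too. Over all genes, 39.3% were lowest and 34.5% highest on array 1. The 11 DP stage genes, which include Themis of the signalling list, deviated by -0.14, 0.073 and 0.070 on average, with 9 lowest on array 1. The 20 immediate-early genes, which cells transcribe within minutes of a stimulus, deviated by 0.70, -0.38 and -0.32, with 18 highest on array 1. Nr4a1, a target of receptor signals, had 11.65, 9.95 and 10.04, and Cd69, an early activation marker, had 9.75, 8.74 and 8.94. The exceptions were the receptor-induced factors Egr2 (7.24, 7.61 and 7.60) and Egr3 (8.13, 8.21 and 8.14), both lowest on array 1. Bcl10 was likewise higher on array 1, and the 8 genes with a margin below both arrays were lower there, as most DP stage genes were. Bcl10 and these 8 genes were singled out by their values over the arrays. Their direction is therefore no separate link to either list. Mature T cell genes deviated by 0.27, -0.23 and -0.034 (10 of 11 highest on array 1), myeloid and dendritic markers by 0.28, -0.29 and 0.012 (10 of 15), NK cell markers by 0.20, -0.15 and -0.045 (6 of 7), B cell markers by 0.028, -0.045 and 0.016 (4 of 10) and thymic epithelial markers by -0.19, 0.063 and 0.13 (0 of 9). The B cell count of 4 of 10 was near the 34.5% of all genes. Most markers of these lists were at background. Above the limit on all arrays were H2-Ab1 (9.26, 7.91 and 8.50), H2-Eb1 (8.82, 7.77 and 8.40) and Ctss (8.46, 8.0 and 8.71) of the myeloid and dendritic list, Cd79b (8.73, 8.79 and 8.83) of the B cell list, Gzma (8.61, 8.08 and 8.18) of the NK cell list and Cldn4 (8.88, 9.06 and 9.03) of the epithelial list. So were Klf2 (9.13, 8.43 and 8.41), Ccr7 (8.31, 8.03 and 8.23) and S1pr1 (8.01, 7.56 and 7.91) of the mature T cell list, each highest on array 1. The class II gene Cd74 had 8.83, 7.27 and 8.05, and the defining markers Csf1r (6.54, 6.25 and 6.51), Itgam (6.75, 7.02 and 6.67), Cd79a (5.19, 4.92 and 5.17) and Ncr1 (5.11, 4.78 and 4.71) were below the limit on every array. In bulk samples fewer cells of a type and less RNA per cell cannot be told apart. The part of these lists, and of the sex-linked difference, in the values of the signalling genes was not tested.

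**Figure D4:**
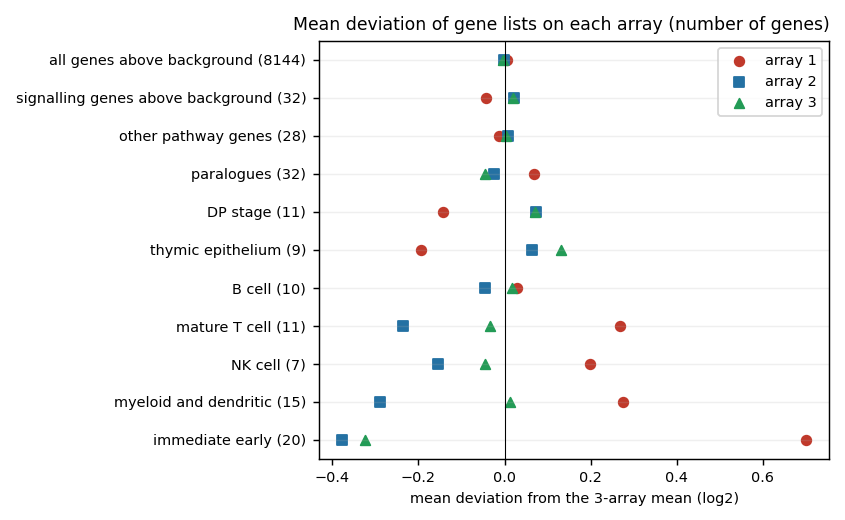
Mean deviation from the 3-array mean (x axis, log2) of gene lists on each array, with the number of measured genes in parentheses. The signalling genes lie at -0.042 on array 1, between all genes above background (0.0052) and DP stage genes (-0.14), and the immediate-early genes lie at 0.70.

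The paralogues of these genes, many of them the versions used by B cells, mast cells or other tissues, were less uniformly detected. Of 32 measured, 17 lay above the limit on all arrays, where 40.8% of all genes did, 14 on none and 1 on some. For Zap70, the paralogue Syk was above the limit with 8.31, 8.10 and 8.06. For the Lat and Lcp2 scaffold, the B cell and mast cell versions Lat2 (7.07, 6.34 and 6.52), Blnk (6.12, 6.14 and 5.95) and Clnk (5.09, 5.08 and 4.76) were all below it. Among the Tec kinases, Tec was above (8.09, 7.82 and 7.89), and Btk (4.99, 5.14 and 4.87) and Bmx (3.93, 4.15 and 4.09) were below. Of these 7 relatives, Syk and Tec were above the limit.

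In some other families the listed paralogues were detected too, and in others they were not. Prkcb, a conventional protein kinase C, had 11.16, 11.26 and 11.28, and Prkcd and Prkca were above the limit too. Sla2 had 10.95, 10.99 and 10.96, Nck2 had 10.30, 10.23 and 10.20, and Grap, a relative of Grb2 and Gads, had 10.01, 10.27 and 10.05. Rasgrp2 (10.08, 9.77 and 9.73) and Rasgrp4 (8.33, 8.24 and 7.95) were above the limit and Rasgrp3 (4.71, 4.74 and 5.00) was below it. Vav2 (8.98, 9.17 and 9.04), Sos2 (8.60, 8.52 and 8.47), Ptpn11 (9.25, 9.38 and 9.31), Ptpn12, Matk and Icos were above it, whereas Vav3, Plcg2, Themis2, Cblc and Ptpn18 were below. Of the further Src family kinases, Fgr exceeded the limit narrowly (7.70, 7.63 and 7.59) and Src, Yes1 and Blk did not. Ctla4, the inhibitory relative of Cd28, had 8.47, 7.08 and 6.76 and exceeded the limit on array 1 only. Cd28 and Bcl10 were also highest on array 1, as 38.6% of genes above the limit were. Ctla4 and Bcl10 were singled out by their values on that array, so the shared direction is no separate link. With the 99th percentile as the limit, 12 of the 32 paralogues remained above it, where 34.6% of all genes did. Those that dropped out were Fgr, Tec, Matk, Icos and Ptpn12.

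**Figure D5:**
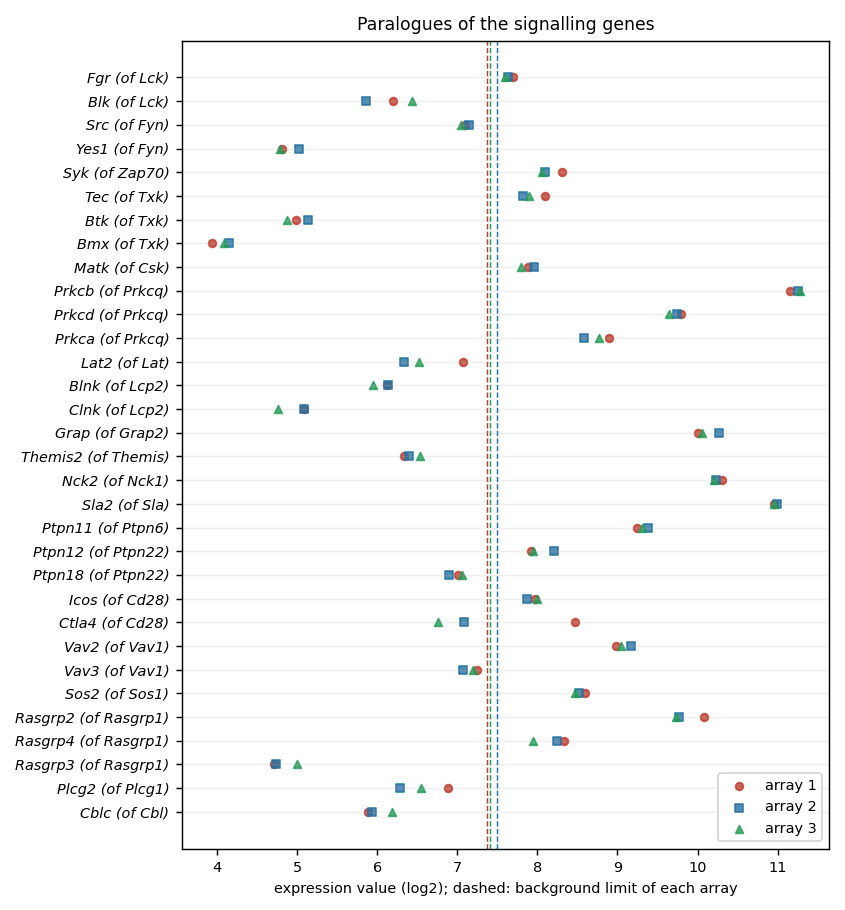
Log2 expression value (x axis) on each array of the 32 measured paralogues of the signalling genes, with the related gene in parentheses and dashed lines at the background limits. Of these, 17 lie above the limits on all arrays, and Ctla4 is above its limit on array 1 only, at 8.47.

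Of 28 measured further genes of the pathway, 26 lay above the limit on all arrays, where 40.8% of all genes did. The same 26 exceeded the 99th percentile, as 34.6% of all genes did, and none passed the variance test. They included Fyb (10.80, 10.83 and 10.89) and Skap1 (10.54, 10.43 and 10.51), which link SLP-76 to integrins, and the transmembrane adaptors Sit1 (10.42, 10.54 and 10.50), Trat1 (10.01, 10.16 and 10.23), Lax1 (9.20, 9.06 and 8.98) and Lime1 (9.12, 9.27 and 9.12). The exceptions were the adaptor Gab2 (6.52, 6.73 and 6.63) and the ubiquitin ligase Rnf128 (4.97, 4.86 and 5.03), below the limit on all arrays. Ptpn2, a phosphatase of Src and Janus kinases, had 9.23, 8.95 and 9.03, and Map4k1, a kinase that restrains SLP-76, had 10.00, 10.26 and 10.16. Traf6, a ubiquitin ligase that acts below Bcl10 and Malt1, had 10.69, 10.25 and 10.23 (SD 0.26), the largest spread of these genes. Like Bcl10 it was higher on array 1 and close between arrays 2 and 3. Both genes were picked by their spread, and array 1 stood farthest from the other arrays, so the likeness is no separate link. The 28 genes deviated by -0.013, 0.0087 and 0.0040 on average on the 3 arrays. On array 1, 15 of them were lowest and 8 highest, against 39.3% and 34.5% of all genes. Of the 26 above the limit, 53.8% were lowest and 30.8% highest there, against 41.2% and 38.6% of genes above the limit. The 32 signalling genes above the limit leaned the same way, with 59.4% lowest and 25% highest. The direction of the lean was therefore not particular to the signalling list.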

How the data were processed

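Total RNA of bead-sorted CD4+ CD8+ thymocytes was extracted with TRIzol, labelled with biotin and hybridised, as the labels' protocols describe, with an array for each cohort. The tool affy is listed, without version, per the submitters' processing notes; its settings were not given in the sources used here. Each probe set has a deposited log2 expression value with 2 decimals, a unit read from the values (1.60 to 14.94), whose quartiles agree between arrays within 0.02, so a global difference in RNA content would not be visible.

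Of 35556 probe sets, 21789 had 1 gene symbol in the platform annotation, 1621 several and 12146 none; no gene was named from several. The 6612 lowest-numbered probe sets, none with a symbol, were left out of the variance test as the control block. Gene IDs of all 33 measured genes matched RefSeq symbols (GRCm38.p6). The background limit came from 99 probe sets of 97 genes of other organs, 4 of which lay above it on all arrays. The variance test used limma 3.58.1 in R 4.3.3; other steps used Python 3.11.15, numpy 2.4.6, pandas 2.3.3 and matplotlib 3.10.9. The test was run on simulated data first: it called 1 probe set when nothing was shifted and recovered 100% of shifts of 4 log2 units, with 3 false calls.

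With 1 group there is no test between conditions. All 33 genes are named; of the paralogue, pathway and marker lists any gene could be named. Members and lists were chosen with earlier results of these data known. Alternatives were other limits, other scalings, other probe sets per gene, other priors and leaving out each array.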

Additional observations from a re-analysis of the deposited data

How the results depend on the processing

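The count of signalling genes above background was 32 under both other limits, quantile normalization, median centring and without any 1 array, and 31 with the dimmest probe set of a gene, through Dgkz. The paralogue count ran from 12 (99th percentile) to 19 (median plus 1 log2 unit), against 17. The count of 26 further pathway genes did not change under any alternative run. The variance test called 0 of the 33 genes under all its alternatives, with 1 or 2 at an unadjusted p under 0.05. Its count over all probe sets was 6, with 3 for a prior that was not robust, 0 for a prior without a trend, 0 with the control block included, 4 over genes only, and 18, 0 and 0 without arrays 1, 2 and 3. The median SD of the signalling genes was 0.049 to 0.13 when 1 array was left out, lowest without array 1. Their mean deviation on array 1 was -0.061 to -0.030 over the alternatives that average members, and the median member deviated by -0.053. The 8 genes lower on array 1 by 0.2 (10.2% of all genes above the limit) were 11 after quantile normalization (11.5%), 11 with a margin of 0.15 (16.1%) and 3 with 0.3 (4.11%), alternatives chosen after seeing the data. No paired analysis was possible because the series has 1 group. Differences near the background limit are limited by signal.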
